A study of Arabidopsis thaliana with 12 samples.

Results

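The 69 genes described here are those whose array probes were brightest in control plants of thale cress, Arabidopsis thaliana, of the wild-type ecotype Col-0. Total RNA came from plants grown under iron excess, which the labels describe as an oxidative stress (6 high iron samples), and from control plants (6 samples). The titles mark the control samples as H2O and the high iron samples as pFe. All plants were Col-0, and the sources used here state neither the tissue nor the iron dose, the duration or the age. Of 3439 probes, 692 carried exactly 1 annotated gene. Each array was divided by its median, the 6 control values of a probe were averaged, and the top 10 percent of the 692 by this mean were taken. The genes were thus chosen by their control intensities, so their brightness in control samples is a description and not a result.

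The deposited values are probe intensities, which depend on how well a probe hybridises as well as on how much RNA is present. The order of the probes is therefore an order of brightness, and the name "most abundant transcripts" holds only in that sense. Fewer cells of a type and less RNA per cell cannot be told apart in such samples. Of the 30 brightest probes of any annotation, 6 carried 1 gene, 5 carried several and 19 carried none, so most of the brightest signals are not among the genes described. Genes with a place among the 69 but no name beyond a locus tag number 53, and they are given by that tag without a role. The other 16 have a name in the gene table, and 7 of these act in the plastid's photosynthetic membrane or make its pigments.

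In green tissue, transcripts for the light reactions and carbon fixation are among the most plentiful messages of the nucleus, because the photosystems and their antenna are built in large amounts and repaired constantly. Excess iron is known to catalyse the formation of reactive oxygen species, and the photosynthetic membrane, which is rich in iron, is one place where these arise. Plants store surplus iron in plastid ferritins. No ferritin and no gene of iron uptake on the list of 7 had a probe of its own among the 692.

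High iron arrays were spread more widely than control arrays. Array medians lay between 0.352 and 0.446 at high iron and between 0.555 and 0.618 in control samples, while array means lay between 0.978 and 1.03 and between 1.01 and 1.04. A bright probe therefore sits further above the median of a high iron array, and the change of a bright gene depends on how arrays are scaled. Values below are quantile-normalised intensities, in the deposited scale whose unit is not given, unless another scaling is named. Changes are log2 differences, high iron minus control, with the standard error (SE) of limma. A gene is said to have risen or fallen only where its Benjamini-Hochberg adjusted p over all 3439 probes was under 0.05 over the 12 samples.

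The samples of a group also fell into 3 sets by number, 1 with 2, 3 with 4 and 5 with 6. Over probes, a sample's departure from the mean of its group had a correlation of 0.560 to 0.818 with that of its set partner and of -0.695 to -0.254 with those of other sets. The departures within a group sum to 0, so positive values within sets force negative ones on average between sets. Only the positive values speak of sets. Nothing in the labels says that the samples came from separate plants, so the p-values rest on the spread of these samples alone, and that spread may be technical. If both samples of a set measure the same plants, n is 3 per group and p over 12 samples is too small. For that reason the adjusted p over the 6 averages of the sets is given as well.

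AT3G09850 was the brightest of the 69 in both groups. Its normalised intensity was lowest at 31.6, had a median of 51.4 and was highest at 72.7 in high iron samples, against 91.6, 91.6 and 98.3 in control samples. The groups did not overlap. Control samples 5 and 6 of this gene were deposited at the upper limit of the scale, 100, where only a lower bound of the signal is known, and its control ranks of 2 to 4 set its normalised control values, so no fold is given. The fitted log2 change was -0.87 (SE 0.18, adjusted p = 0.00305; 0.127 over the 6 averages), and it was -0.84 (adjusted p = 0.0293) with the values at the limit left out. After median scaling its change was -0.11 and did not pass (adjusted p = 0.698), and with deposited values it was -0.63 (adjusted p = 0.0116).

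Directly below it stood PSBW, a small nuclear-encoded subunit of photosystem II. PSBW measured 25.9, 30.9 and 31.6 (lowest, median, highest) in high iron samples, against 21.9, 28.1 and 28.1 in control samples, and the groups overlapped. Its change was 0.19 (SE 0.09, adjusted p = 0.116). With the sample number as a block it passed (adjusted p = 0.0105), and it passed at 1.34 after median scaling (adjusted p = 9.25e-05) and at 0.82 with deposited values (adjusted p = 0.000395). AT2G27290, next in order, had a change of 0.09 (SE 0.13, adjusted p = 0.648) while it passed at 1.26 after median scaling and at 0.74 with deposited values.

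AT4G31530 and AT4G17070, at places 4 and 5, were both higher in every high iron sample than in any control sample. AT4G17070 measured 30.1, 38.1 and 45.2 at high iron, against 9.43, 14.8 and 15.2 in control samples. It rose 2.79 times (log2 change 1.48, SE 0.15, adjusted p = 6.02e-05), which was the largest rise among the 69. Its change was 1.49, 1.36 and 1.59 in the 3 sets, and its adjusted p was 0.0463 over the 6 averages. AT4G31530 measured 31.6, 35.6 and 51.4 at high iron, against 14.4, 21.9 and 30.1 in control samples. It rose 1.81 times (log2 change 0.85, SE 0.21, adjusted p = 0.00824). The set of samples 1 and 2 moved little (0.24), the other sets moved by 1.14 and 1.18, and the adjusted p over the 6 averages was 0.163.

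**Figure D1:**
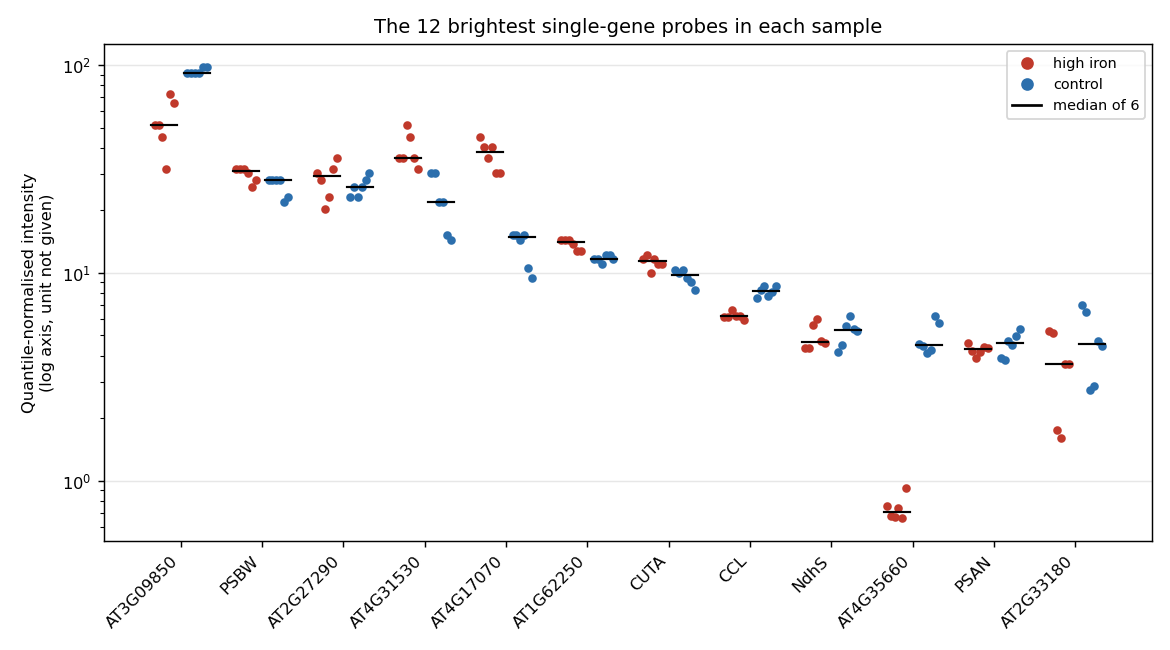
Quantile-normalised intensity (log axis) of the 12 brightest single-gene probes, with 6 high iron and 6 control samples as points and the median of each group as a bar. AT4G17070 lay between 30.1 and 45.2 at high iron and between 9.43 and 15.2 in control samples, and AT4G35660 lay between 0.660 and 0.925 at high iron and between 4.11 and 6.23 in control samples.

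Of the 69 genes, 13 rose, 20 fell and 36 did not pass. That is 18.8% higher and 29.0% lower, beside 18.2% higher and 15.2% lower among all 3439 probes. Among the brightest 344 probes of any annotation, 52 of them from the 69, 17.4% were higher and 29.9% lower. Among the single-gene probes at places 70 to 138, 15.9% were higher and 39.1% lower. Over the 6 averages 1 was higher and 3 were lower, beside 1.31% and 1.08% of all probes. With the set as a random block 4 were higher and 15 lower, beside 8.23% and 6.05%, and with the sample number as a block 14 and 25, beside 22.1% and 18.4%. Without samples 1 and 2, 3 and 4, or 5 and 6 of both groups, 10, 10 and 8 were higher and 17, 14 and 18 lower. The shares over all probes in those fits were not taken. The control values that chose the genes also enter each change, which tilts it toward a fall. When the genes were ranked on control samples 1 and 2, 3 and 4, or 5 and 6 alone and the changes were taken over the other control samples, 18, 13 and 9 of 69 were higher and 17, 18 and 20 lower. Among all probes 17.8%, 13.8% and 15.3% were higher and 14.1%, 10.7% and 12.1% lower in these fits.

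The median change of the 69 was -0.07, beside 0.00 over all probes. Under median scaling it was 0.48, beside 0.02, with 42 higher and 8 lower (24.7% and 12.7% of all probes). With deposited values it was -0.04, beside -0.40, with 22 higher and 19 lower (8.46% and 46.6% of all probes). The 69 were closer to the brightest 344 probes, which include 52 of the 69, than to all probes. Under median scaling 60.9% of the 69 were higher and 11.6% lower, beside 64.8% and 9.01% of the brightest 344 probes of any annotation. With deposited values these shares were 31.9% and 27.5%, beside 37.8% and 26.5%. The median changes of those 344 probes were 0.65 and 0.12 under these scalings. The 13 genes that rose also rose under both other scalings. Of the 20 that fell, 7 had a positive change under median scaling and 3 of these passed as higher there (CCL, AT4G05070 and AT4G39760). A further 8 fell under both other scalings. So 21 of 69 passed with the same sign under all 3, 13 higher (18.8%) and 8 lower (11.6%). Among all probes 6.40% were higher and 10.4% lower by this measure, so the share of falls was near that of all probes. In all 69 genes the change after median scaling lay above the quantile-normalised one, which favours rises by this measure. The share was not taken for the brightest 344 probes, so the 18.8% is a description of bright probes. Over the 6 averages, median scaling gave 19 higher and 2 lower (5.93% and 1.60% of all probes), and deposited values gave 7 and 7 (2.15% and 10.9%). The genes that passed over the 6 averages under all 3 scalings were AT4G17070, AT4G35660 and AT3G18870, and with the sample number as a block over these averages their adjusted p was 0.0728, 0.0664 and 0.0728.

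**Figure D2:**
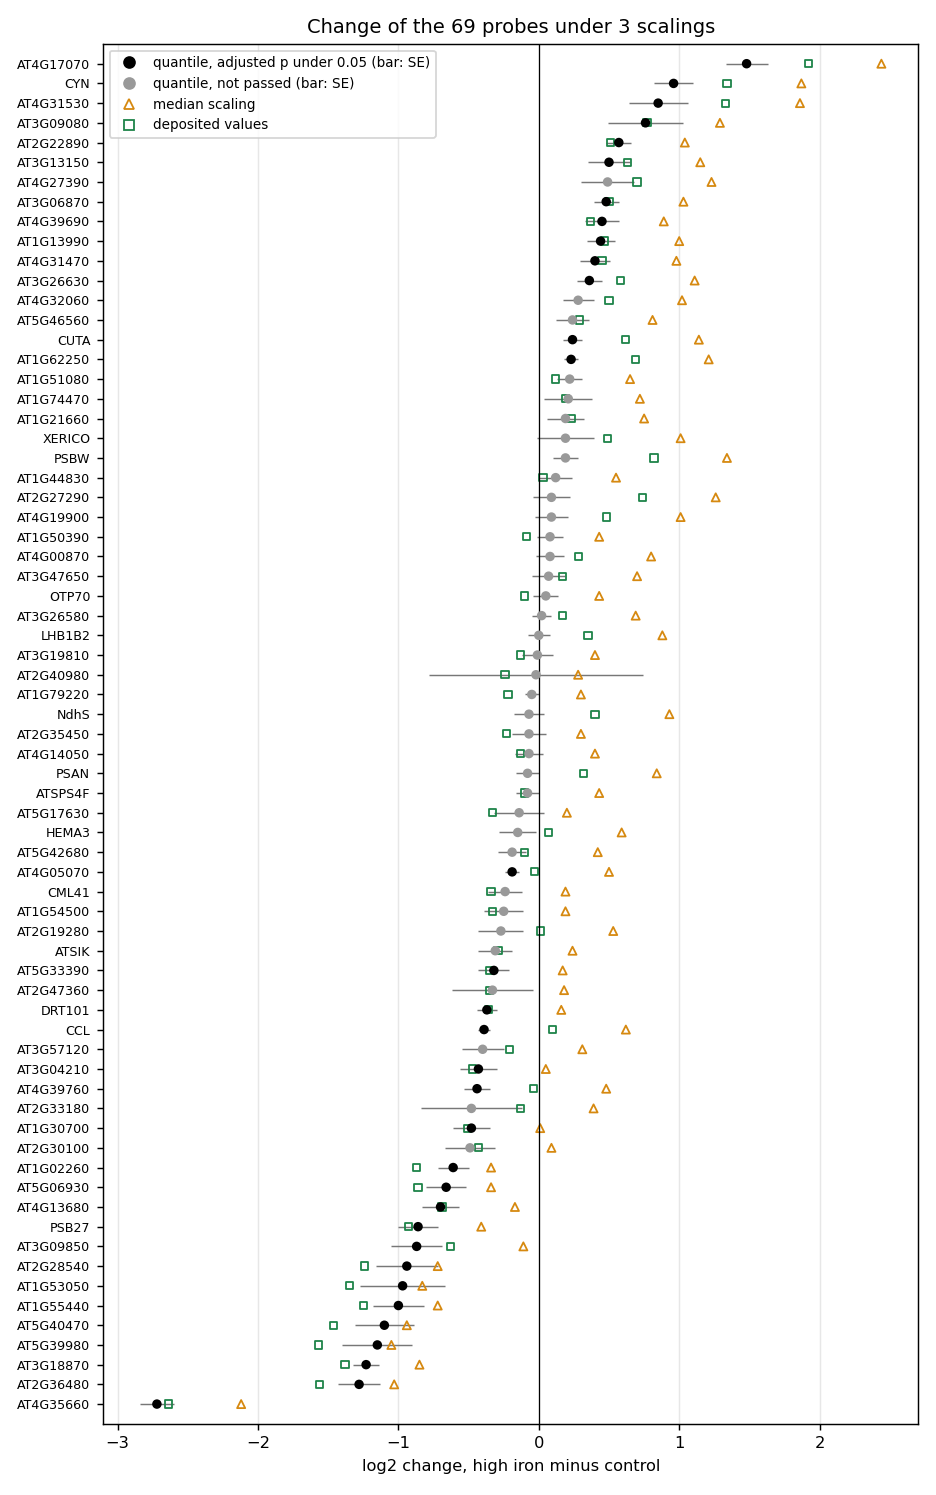
Log2 change, high iron minus control, of the 69 probes, sorted. Circles with SE bars are quantile-normalised changes, filled black where the adjusted p was under 0.05, and triangles and squares are the changes after median scaling and with deposited values. The quantile-normalised changes run between 1.48 (AT4G17070) and -2.72 (AT4G35660), and in all 69 probes the change after median scaling lies above them.

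The share of an array's summed deposited intensity on the 69 probes does not change when a whole array is multiplied by a factor. It was lowest at 10.5%, had a median of 10.6% and was highest at 10.8% in high iron samples, against 8.47%, 8.53% and 8.63% in control samples. The mean was 10.6 ± 0.16% at high iron and 8.54 ± 0.06% in control samples (SD, n = 6 each), and the groups did not overlap. AT3G09850 is at the upper limit in control samples 5 and 6, and with the 7 probes that reach that limit on any array (1 of them among the 69) left out of both sums, the share was 10.7 ± 0.73% at high iron and 6.98 ± 0.29% in control samples. The brightest 10 percent of all probes, which include 52 of the 69, likewise held 60.8 ± 2.55% at high iron and 50.5 ± 1.25% in control samples.

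The difference of 2.1 percentage points was the sum of gains and losses of single genes. AT4G17070 held 1.25% of the signal at high iron and 0.329% in control samples, and AT4G31530 held 1.27% and 0.515%. PSBW held 1.07% at high iron and 0.598% in control samples, while AT3G09850 held 1.79% and 2.66%. Without the 5 brightest genes, whichever way they changed, the share was 4.31 ± 0.14% at high iron and 3.87 ± 0.11% in control samples, without overlap. Without only AT4G17070 and AT4G31530, which were picked for their rises, it was 8.12 ± 0.30% at high iron and 7.70 ± 0.20% in control samples, where the groups overlapped but high iron was higher within all 6 pairs of equal sample number. The genes at places 6 to 23 held 2.49 ± 0.15% at high iron and 1.94 ± 0.04% in control samples, and those at places 24 to 69 held 1.81 ± 0.06% and 1.93 ± 0.07%.

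**Figure D3:**
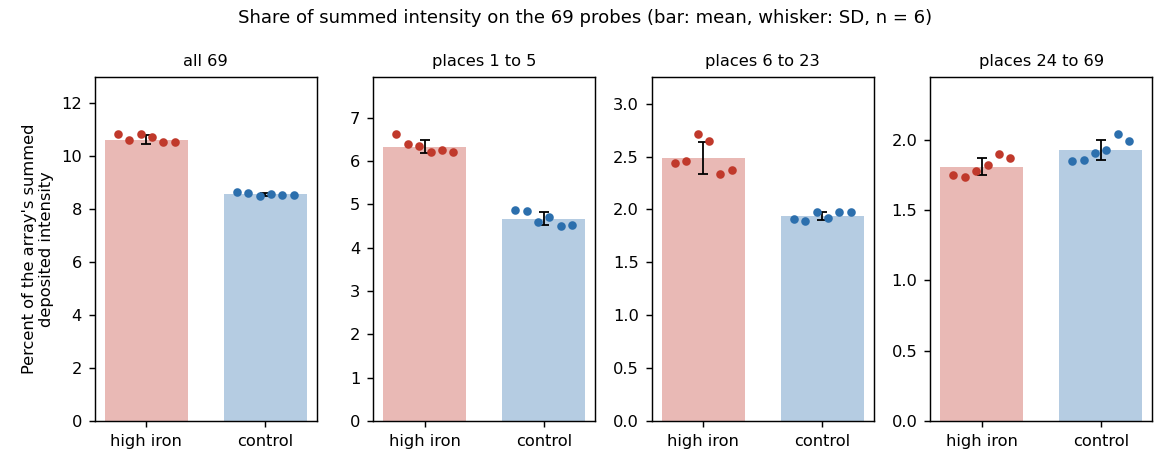
Percent of the array's summed deposited intensity on all 69 probes and on 3 ranges of places, for high iron and control samples (points, with bar at the mean and SD whisker, n = 6 each). All 69 together held 10.5 to 10.8% at high iron and 8.47 to 8.63% in control samples, and the range of places 24 to 69 was the one with a lower mean at high iron.

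Next to AT4G17070, the largest rise was that of CYN, cyanase, the enzyme that breaks down cyanate with bicarbonate to ammonia and carbon dioxide. CYN measured 4.53, 6.08 and 7.32 at high iron, against 2.42, 3.26 and 3.52 in control samples, and the groups did not overlap. It rose 1.95 times (log2 change 0.96, SE 0.14, adjusted p = 0.000449), with 0.97, 0.81 and 1.11 in the 3 sets. Over the 6 averages its adjusted p was 0.0665 after quantile normalisation, 0.0291 after median scaling and 0.0312 with deposited values. CUTA, a homologue of a bacterial copper tolerance protein, rose by 0.24 (SE 0.07, adjusted p = 0.0168), with 10, 11.3 and 12.2 at high iron against 8.23, 9.74 and 10.3 in control samples. The CUTA groups overlapped slightly, and its adjusted p over the averages was 0.183.

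The remaining genes that rose are known by locus tag. AT2G22890 measured 1.5, 1.70 and 1.80 at high iron, against 0.860, 1.15 and 1.33 in control samples, a rise of 0.57 (SE 0.09, adjusted p = 0.000999) with no overlap. AT3G06870 rose by 0.48 (SE 0.09, adjusted p = 0.00256), and AT1G62250 by 0.23 (SE 0.05, adjusted p = 0.0027), both without overlap. AT3G09080 rose by 0.76 (SE 0.27), AT3G13150 by 0.50 (SE 0.15) and AT4G39690 by 0.45 (SE 0.12), with overlapping groups. AT3G09080 passed narrowly (adjusted p = 0.0462) and lost its call in 9 of the 12 fits that each lacked 1 sample, and AT3G13150 (adjusted p = 0.0277) in 5. The set of samples 3 and 4 moved AT3G13150 by -0.07 and the set of samples 5 and 6 by 1.15. Over the 6 averages the adjusted p of these 6 genes lay between 0.0611 and 0.296. AT1G13990, AT4G31470 and AT3G26630 completed the 13 rises, with changes of 0.44, 0.40 and 0.36.

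AT4G35660 fell most of the 69, and held place 10 in brightness. It measured 0.660, 0.707 and 0.925 at high iron, against 4.11, 4.49 and 6.23 in control samples. All high iron samples were far below all control samples. It fell to 0.152 times the control level, with a log2 change of -2.72 (SE 0.12, adjusted p = 1.02e-07), with -2.66, -2.57 and -2.93 in the 3 sets and an adjusted p of 0.00575 over the 6 averages. Its median rank within the array was 1030 at high iron and 73.0 in control samples, where rank 1 is the brightest of 3439 probes.

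AT3G18870 measured 0.660, 0.734 and 0.832 at high iron, against 1.51, 1.68 and 2.19 in control samples, without overlap. It fell to 0.425 times the control level, with a log2 change of -1.23 (SE 0.09, adjusted p = 6.94e-06), and passed over the 6 averages (adjusted p = 0.0266). AT2G36480 fell by 1.28 on the log2 scale (SE 0.15, adjusted p = 0.000106), with 0.421, 0.619 and 0.682 at high iron against 1.13, 1.40 and 1.59 in control samples, and had an adjusted p of 0.0539 over the averages. For AT5G40470 the change was -1.10 (SE 0.21), for AT1G55440 -1.0 (SE 0.18) and for AT2G28540 -0.94 (SE 0.22), all with groups that did not overlap and adjusted p from 0.00169 to 0.00649. AT5G39980 (-1.15, SE 0.25, adjusted p = 0.00438) and AT1G53050 (-0.97, SE 0.30, adjusted p = 0.0268) fell with overlapping groups, and AT1G53050 lost its call in 5 of the 12 fits that each lacked 1 sample. Over the 6 averages the adjusted p of these 5 genes lay between 0.0934 and 0.233. Beside these, AT3G09850 above and the named genes below, 8 other locus tags fell, by values between -0.19 (AT4G05070) and -0.70 (AT4G13680). The direction depends on the scaling for AT4G05070, at 0.50 after median scaling (adjusted p = 0.000347), and for AT4G39760, at -0.44 and at 0.48 after median scaling (adjusted p = 0.00721).

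Among the 5 genes of the photosynthetic membrane, 0 rose, 1 fell and 4 did not pass, beside 18.2% higher and 15.2% lower among all probes. PSB27, a lumenal protein that assists the assembly and repair of photosystem II, measured 0.913, 1.03 and 1.05 at high iron, against 1.36, 1.79 and 2.44 in control samples. The groups did not overlap. PSB27 fell to 0.550 times the control level, with a log2 change of -0.86 (SE 0.14, adjusted p = 0.000716; 0.0755 over the 6 averages). It fell by 0.41 after median scaling (adjusted p = 0.0364) and by 0.93 with deposited values.

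The other membrane proteins had changes close to 0. PSAN, a lumenal subunit of photosystem I, measured 3.88, 4.28 and 4.60 at high iron, against 3.80, 4.59 and 5.35 in control samples (log2 change -0.08, SE 0.08). LHB1B2, a light-harvesting antenna protein belonging to a family of closely similar genes whose RNA its probe may also bind, had a change of 0.00 (SE 0.08), with medians of 2.96 at high iron and 2.92 in control samples. NdhS, the ferredoxin-binding subunit of the plastid NAD(P)H dehydrogenase complex, had a change of -0.07 (SE 0.11). These 3 genes and PSBW were higher under median scaling, by 0.84, 0.88, 0.93 and 1.34, and with deposited values, by 0.32, 0.35, 0.40 and 0.82, and passed in both over the 12 samples. Bright probes in general did the same. The brightest 23 of the 69 genes, these 4 included, had median changes of 0.88 under median scaling and 0.35 with deposited values. Among the brightest 344 probes of any annotation, these 4 again included, 64.8% were higher under median scaling and 37.8% with deposited values. Over the 6 averages none of the 4 passed with deposited values, and PSAN, LHB1B2 and PSBW passed under median scaling. Of the 39 photosystem and antenna genes on the lists, 4 had a probe of their own and 3 of these were among the 69. The fourth, PSBY, stood at place 110 with a change of 0.20, and the Calvin cycle genes SBPASE and PRK stood at places 279 and 291. No gene of the lists of root, seed or pollen markers had a probe of its own, so the tissue could be checked only by the presence of these photosynthesis genes.

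A pair of named genes belong to pigment synthesis. HEMA3, a glutamyl-tRNA reductase of the committed step of tetrapyrrole synthesis, measured 1.78, 1.82 and 2.44 at high iron, against 1.84, 2.08 and 2.75 in control samples (change -0.15, SE 0.13). AT1G74470, annotated as geranylgeranyl reductase, which makes the side chain of chlorophyll and tocopherol, measured 1.35, 1.58 and 1.75 at high iron, against 1.06, 1.18 and 2.02 in control samples (change 0.21, SE 0.17). Neither passed, and the groups overlapped in both.

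CCL fell slightly, and 3 genes of hormone and kinase or calcium signalling did not pass. CCL, a CCR-like gene known for an unstable, clock-controlled messenger RNA, measured 5.94, 6.17 and 6.61 at high iron, against 7.60, 8.14 and 8.65 in control samples. It fell to 0.761 times the control level with little spread (log2 change -0.39, SE 0.04, adjusted p = 5.42e-05; 0.0390 over the 6 averages), and its median rank was 51.5 at high iron and 38.5 in control samples. Under median scaling CCL was higher by 0.62 (adjusted p = 0.00513), and with deposited values it stood at 0.10 and did not pass, so the direction of its change depends on the scaling. XERICO, a RING-type zinc finger protein that promotes abscisic acid accumulation, had a change of 0.19 (SE 0.20), the kinase gene ATSIK -0.31 (SE 0.12) and the calmodulin-like CML41 -0.24 (SE 0.12). None of these 3 passed, although ATSIK and CML41 passed with the sample number as a block (adjusted p = 0.0388 and 0.00440).

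The remaining named genes had small changes. DRT101, named for tolerance of DNA damage, fell by 0.37 on the log2 scale (SE 0.07, adjusted p = 0.00197), without overlap, at 1.27, 1.36 and 1.53 in high iron samples against 1.57, 1.80 and 1.95 in control samples. Its adjusted p was 0.0968 over the 6 averages and its value was 0.16 after median scaling. ATSPS4F, a sucrose-phosphate synthase, had a change of -0.08 (SE 0.08), and OTP70, a protein of organelle transcript processing, 0.05 (SE 0.09). In all, 2 of the 16 named genes rose, 3 fell and 11 did not pass, beside 18.2% higher and 15.2% lower among all 3439 probes.

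The rank of a probe within its array does not change with the scaling of the array. In 6 of the 69 genes every high iron rank was brighter than every control rank, and in 13 every one was dimmer, which is 8.70% and 18.8%, beside 9.89% and 8.37% of all probes. The control values that chose the genes also set their control ranks, which tilts these counts toward dimmer ranks. Shares for probes of like brightness were not taken. AT4G17070 had a median rank of 10.5 at high iron and 22.5 in control samples, and CYN one of 52.5 and 106. AT3G09850 had 8 and 4. When the rule was applied to the high iron samples instead, 51 of 69 genes were chosen again, which is 73.9% of each list. Of the 18 that left the list, 11 had fallen and 0 had risen; some exchange is built in, because each list was ranked on its own samples.

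**Figure D4:**
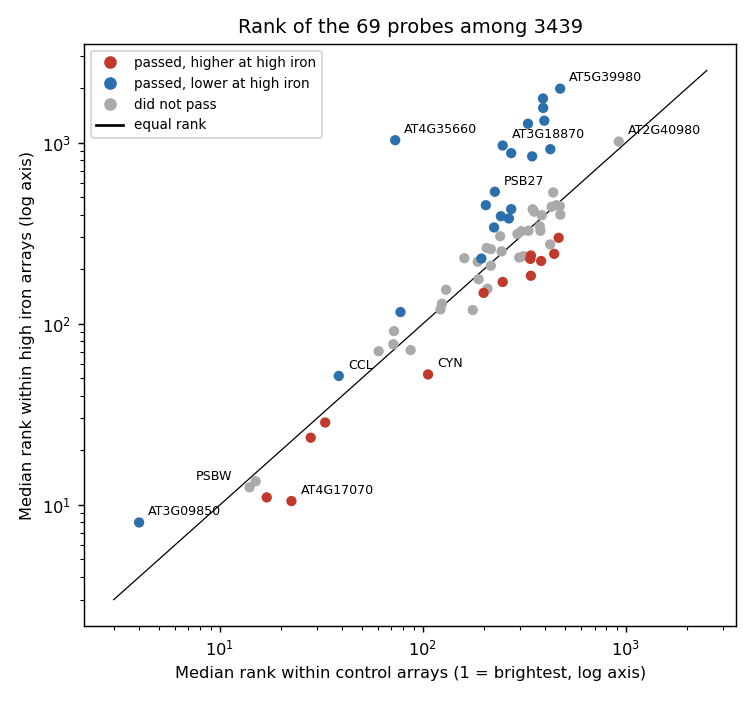
Median rank of the 69 probes within 6 high iron arrays (vertical, log axis) and within 6 control arrays (horizontal, log axis), with rank 1 the brightest of 3439 and a line of equal rank. AT4G35660 lies far above the line, at 1030 at high iron and 73.0 in control samples, and AT4G17070 lies below it, at 10.5 and 22.5.

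Some genes varied more between the sets than with iron. AT2G40980, picked after its values were seen, entered the 69 through control samples 5 and 6, at 4.11 and 4.33, while control samples 1 to 4 lay between 0.455 and 0.851. The high iron samples showed the same pattern, with 3.49 and 3.55 in samples 5 and 6 and 0.561 to 0.788 in samples 1 to 4. The brightest set stood 6.16 times above the dimmest at high iron and 9.06 times in control samples, while the change with iron was -0.02 (adjusted p = 1). AT2G33180, at place 12, was dimmest in samples 3 and 4 of both groups, at 1.6 and 1.75 at high iron and 2.73 and 2.85 in control samples. Its change was -0.48 (SE 0.36, adjusted p = 0.349), and with the sample number as a block it passed (adjusted p = 0.00532).

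Over the 69 genes the range between set averages had a median of 0.40 at high iron and 0.44 in control samples, on the log2 scale, beside a median size of 0.32 for the change with iron. In 35 of 69 genes this range exceeded the change in both groups. The same set was the brightest in both groups for 35 of 69 genes, and for 327 of the 623 other single-gene probes.

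**Figure D5:**
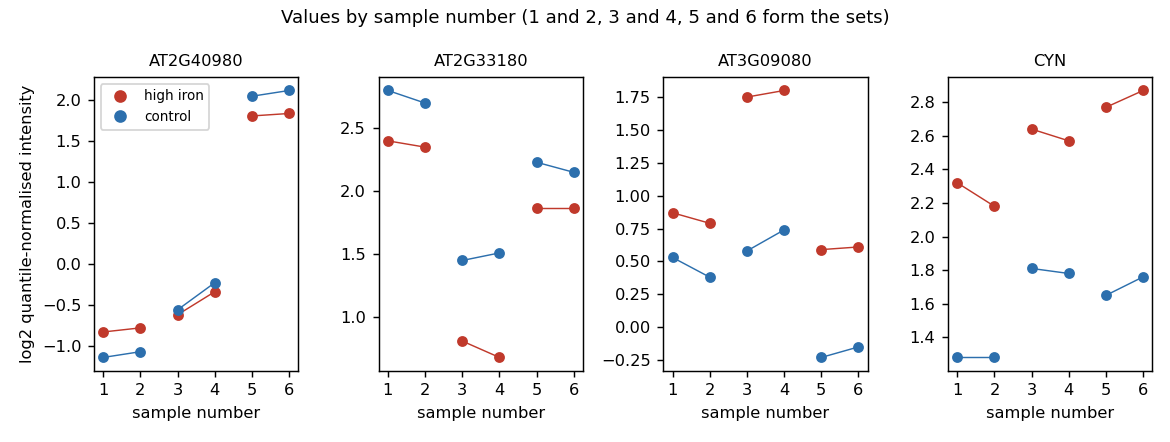
Log2 quantile-normalised intensity of 4 of the 69 probes by sample number, for high iron and control samples, with lines joining the samples of a set. AT2G40980 and AT2G33180 follow the set in both groups, with changes of -0.02 and -0.48. AT2G33180 is also lower at high iron within each set, and AT3G09080 and CYN are higher within each set. AT3G09080 also varies by set, with samples 3 and 4 the brightest set in both groups.

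The rule's boundary fell in a dense part of the order. The last genes inside it, AT1G50390, AT5G17630 and AT5G39980, had control means of 2.07, 2.06 and 2.05 times the array median, and the next outside, AT3G54210, AT2G46300 and AT2G44760, had 2.05, 2.05 and 2.04. AT5G39980, the last inside, is among the largest falls. On single sets of control samples the rule chose 56, 62 and 62 of the same 69 genes.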

How the data were processed

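The deposited values are linear probe intensities with an upper limit of 100. How the authors scanned, corrected and scaled them is unknown here, as are their unit and centring. Arrays were assigned by title and source name. Gene names come from the platform annotation, updated through a RefSeq gene table (TAIR10.1) that listed the genes of 690 of the 692 single-gene probes. It holds names and no descriptions, so groups by key word matched few genes, and roles are background knowledge for named genes only. Sequences and positions were not used here.

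All 12 arrays were quantile normalised, floored at the 5th percentile of positive values (0.106; none of the 69 genes reached it) and taken to log2. Probes were tested two-sided in R 4.3.3 with limma 3.58.1 (lmFit, then eBayes with trend). P-values were adjusted by Benjamini-Hochberg over 3439 probes, with a threshold of 0.05. The fit was also run on simulated data with known changes and sets built in. The outcome of that run is not reported here, so it lends the calls no support. No depth applies to arrays. Precision is limited by the number of arrays and by how many of them are independent, which the labels do not state.

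Alternatives were median scaling, deposited values, no floor, no dim probes, upper-limit values as missing, averages of sets, the set as a random block (statmod 1.5.0, correlation 0.774), the sample number as a block, array weights, fewer samples and other ways to choose the genes. Departures from the group means correlated at 0.133 to 0.521 between equal numbers of the groups, so the number was used as a block. Different numbers of the same set correlated at 0.112 to 0.491, so the data do not tell whether the number or the set is shared, and the labels do not say. The 69 genes and all lists were chosen with earlier results of these data known. The genes named were the 12 brightest, the 8 largest rises and 8 largest falls that passed, 3 on each side of the boundary, genes on lists, up to 3 per key-word group and, added after the annotation was seen, every gene with a name.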

Additional observations from a re-analysis of the deposited data

Results flagged for a closer look

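In AT3G06870, which rose, control sample 4 lay above the other 5 control samples, at 0.61 against 0.43 to 0.49 on the log2 scale, and this gap was 0.687 of the range. In ATSPS4F, which did not pass, high iron sample 6 lay below the other 5, at 0.25 against 0.51 to 0.63, and this gap was 0.697 of the range. These were 2 of 80 groups of values examined, and chance gives about 1 in 20.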

How the results depend on the processing

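Of the 69 genes, 13 rose and 20 fell over the 12 samples, with a median change of -0.07. Median scaling gave 42 and 8 with a median change of 0.48, and over the 6 averages 19 and 2 (also 0.48). Deposited values gave 22 higher, and over the averages 7 and 7. The 6 averages gave 1 and 3, and the set as a random block gave 4 higher. With the replicate block over 12 samples 14 rose and 25 fell, 30 of the 33 calls remained and 9 genes were added that had not passed. With the replicate block over the 6 averages limma passed 0 and 0, and 1 of all probes. Without samples 1 and 2, 3 and 4, or 5 and 6 of both groups, 10, 10 and 8 rose and 17, 14 and 18 fell. Leaving out 1 sample gave 11 to 13 higher and 18 to 21 lower, with a median change of -0.09 to -0.03. Ranking on control samples 1 and 2 or 5 and 6 gave a median change of 0.03 and -0.01. The top 5 percent (35 genes) held 6 rises and 9 falls, and the top 20 percent (138 genes) 24 and 47 with a median change of -0.19. Among all probes 18.2% were higher and 15.2% lower. The share of summed intensity differed by 2.1 percentage points, by 11.88 over single-gene probes alone, by 3.68 without probes at the upper limit, by 0.42 without AT4G17070 and AT4G31530, and by 0.43 without the 5 brightest. The combined scaling and averages, and the shares without single genes, were chosen after seeing the data. Of the 20 falls, 7 had a positive change under median scaling and 3 passed as higher (CCL, AT4G05070 and AT4G39760). Among the genes with a name, the direction turned under median scaling for CCL (0.62, also over averages), NdhS (0.93), PSAN and LHB1B2 (0.84 and 0.88, also over averages), HEMA3 (0.59), DRT101 (0.16, also over averages), ATSIK (0.24) and ATSPS4F (0.43); with deposited values it turned for CCL (0.10, also over averages), NdhS (0.40), PSAN (0.32) and LHB1B2 (0.35). These lists hold only genes that passed in the quantile-normalised fit over 12 samples or in the fit named, and LHB1B2 stood at 0.00 in the former. Without a pass in either, the sign also turned for CML41 under median scaling (0.19). With deposited values it did so for HEMA3 (0.07) and OTP70 (-0.10). The cause was not tested.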

Other observations

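When the rule was applied to the high iron samples, 18 genes entered that the control samples had not chosen, and 14 of them had risen over the 12 samples. The choice by high iron values fixes this direction, so it is a description. AT1G76220 stood at 6.5 times the array median at high iron and at 1.96 times in control samples, which moved it to place 20 at high iron and place 81 in control samples. AT1G35510 stood at 6.05 and 1.93 times the median, and AT2G37510 at 6.02 and 1.85. FZL, a dynamin-related protein of plastids that shapes thylakoids, stood at 4.92 times the median at high iron and at 1.99 in control samples, and did not pass after quantile normalisation (log2 change 0.75, SE 0.33, adjusted p = 0.102). AT1G62150 (log2 change 0.88, SE 0.09) and AT4G21170 (0.65, SE 0.07) also passed over the 6 averages (adjusted p = 0.0316 and 0.0463).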
